A study of Mus musculus with 6 samples.

Results

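Metallothioneins and zinc transporters set how much zinc a cell holds free, stores and moves across its membranes. The 7 genes described here are the metallothioneins Mt1 and Mt2, the exporters Slc30a1 (ZnT1) and Slc30a2 (ZnT2), and the importers Slc39a4 (ZIP4), Slc39a5 (ZIP5) and Slc39a14 (ZIP14). They were chosen by gene name from a table of raw read counts that lists 56953 genes, and each name matched 1 row. RNA was sequenced from primary pancreatic acini, the enzyme-secreting units of the exocrine pancreas, on day 3 of an ex vivo assay of acinar-to-ductal metaplasia. There were 3 groups of 2 libraries. WT acini came from wild-type mice labelled 10 and 11 weeks old. DD acini came from Dkk3-null mice labelled 12 and 13 weeks old. Per the study, this germline allele removes the secreted protein in the whole animal, not in acini alone, while an intracellular product of the locus, Dkk3b, is still made. DD + rDKK3 acini, from Dkk3-null mice labelled 14 and 15 weeks old, also received recombinant DKK3, the secreted glycoprotein the null animals lack. The titles give each treated library the name of an untreated DD library, DD1 or DD2, though the labelled ages differ, and whether they share an animal was not given in the sources used here. Age rises with group, so the effects of age, genotype and treatment cannot be told apart if the labels are right. The second WT library is labelled female and the other 5 male. The cultures of all 3 groups shared a Matrigel bed and Waymouth's medium with 10% serum, a trypsin inhibitor and dexamethasone at 10 µg/ml, so there was no group without the synthetic glucocorticoid.

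Metallothioneins are small cysteine-rich proteins that bind zinc and copper. Their genes are switched on by zinc through the metal-sensing factor MTF1, and also by glucocorticoids and by acute-phase cytokines. Transporters of the SLC30 (ZnT) family carry zinc out of the cytosol, across the plasma membrane in the case of ZnT1 and into vesicles in the case of ZnT2, which is known from secretory granules. Transporters of the SLC39 (ZIP) family carry it into the cytosol. ZIP4 is the intestinal importer of dietary zinc, ZIP5 lies on the basolateral side of polarised cells including acinar cells, and ZIP14 also carries iron and manganese and is induced in the acute phase. The exocrine pancreas secretes zinc with its enzymes.

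MTF1 acts through metal response elements, short motifs with the core TGCACNC or TGCGCNC. The promoters of Mt1, Mt2 and Slc30a1, the textbook MTF1 targets among the 7 genes, are shown because these motifs are what the genes share. Each run holds 250 bases before and 30 bases from the RefSeq start of transcription, written 5′ to 3′ on the gene's own strand, with capitals marking every match to either core on either strand. They are RefSeq sequences of build GRCm38.p6 and each matched 1 place in GRCm39 without a mismatch, at chr8:94905467-94905746 (plus strand) for Mt1, chr8:94898996-94899275 (plus strand) for Mt2 and chr1:191638643-191638922 (plus strand) for Slc30a1.
Mt1: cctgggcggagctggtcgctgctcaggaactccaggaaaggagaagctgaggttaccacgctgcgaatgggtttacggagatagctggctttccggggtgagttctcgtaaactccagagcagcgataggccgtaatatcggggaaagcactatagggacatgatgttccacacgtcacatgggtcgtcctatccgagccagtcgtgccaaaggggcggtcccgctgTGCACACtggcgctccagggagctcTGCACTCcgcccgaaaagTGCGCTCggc
Mt2: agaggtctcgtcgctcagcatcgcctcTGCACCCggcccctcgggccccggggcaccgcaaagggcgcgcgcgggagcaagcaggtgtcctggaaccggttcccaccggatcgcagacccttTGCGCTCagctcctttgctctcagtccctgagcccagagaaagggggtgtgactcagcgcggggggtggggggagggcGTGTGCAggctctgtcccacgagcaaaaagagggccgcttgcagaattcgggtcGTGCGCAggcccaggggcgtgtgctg
Slc30a1: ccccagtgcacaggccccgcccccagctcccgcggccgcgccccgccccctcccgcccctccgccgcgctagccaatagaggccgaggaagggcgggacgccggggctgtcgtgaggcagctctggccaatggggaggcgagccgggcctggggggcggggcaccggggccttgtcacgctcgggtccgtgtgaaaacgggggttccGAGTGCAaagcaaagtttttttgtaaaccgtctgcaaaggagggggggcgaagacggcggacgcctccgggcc

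The Mt1 run held 3 matches, TGCACAC beginning 23 bases before the start and TGCACTC and TGCGCTC beginning at bases 3 and 21 from the start. The Mt2 run held 4, TGCACCC and TGCGCTC beginning 223 and 128 bases before the start, and the reverse-strand matches GTGTGCA, from 50 bases before it, and GTGCGCA, from base 5 after it. Slc30a1 had 1 match, the reverse-strand GAGTGCA, from 43 bases before the start. Of 32851 RefSeq promoters of the same length, 24.1% held at least 1 match, 1.73% at least 3 and 0.405% at least 4. Slc30a2 had 2 matches, and 6.37% of promoters had at least 2. Slc39a5 has a pair of RefSeq starts, with 1 match before the first and 0 before the second. None of these 6 runs held TGTTCT, a glucocorticoid receptor motif found in 17.8% of promoters, or TTCNNNGAA, a STAT motif found in 7.83%, on either strand. TGCACNC and TGCGCNC cannot match at the same position, and the other motifs were counted separately. Positions are relative to the RefSeq starts, which need not be those of the annotation used for the counts or those used in these acini. Starts were not mapped here, so whether a match lies before or after the start in use was not tested. The Mt2 run ends at 94899275, before the counted gene begins at 94899292. The Slc30a2 run begins at 134070527, inside a counted gene that begins at 134070492. A match is a string of letters and not a shown binding site, and a window this short leaves out elements farther away. Slc39a4 and Slc39a14 were not among the promoters used here.

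Library totals ran from 12018473 to 19750401 counts. Levels are given as CPM, a gene's count brought to a common library size after TMM scaling, which takes its factors from the bulk of the genes. The 20 acinar markers were all tested and summed to between 112000 and 192900 CPM, so the libraries are rich in the labelled cell type. Markers of other cells were also present. The sum of 14 fibroblast and stellate markers lay between 57.03 and 176.8 CPM in 4 libraries but at 875.4 in DD 2 and 976.8 in DD + rDKK3 2. The same 2 libraries were highest for 8 macrophage markers (239.1 and 184.3, against 57.53 to 115.5 CPM). Summed endothelial markers ranged from 64.94 to 118.9 CPM, islet markers from 158.4 to 291.9, adipocyte markers from 66.96 to 185.7, ductal markers from 1741 to 2671, neutrophil markers from 0.1076 to 1.081 and lymphocyte markers from 0 to 0.2947, with Cd3g and Ms4a1 at 0 in all 6 libraries. In such bulk samples, fewer cells of a type and less RNA per cell cannot be told apart. Dkk3 itself was near the limit of detection, with 10 and 1 counts in the WT pair, 11 and 9 in the DD pair and 5 and 5 in the rDKK3-treated pair, and a gene-level count cannot separate the 2 products, so it does not check the genotype.

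All 7 genes passed the filter on low counts. They fell into 2 tiers, the metallothioneins far above the transporters (the plot of levels per length). Per kilobase of exon, Mt1 averaged 3682 CPM over the 6 libraries and Mt2 2801 CPM, which ranked them 13th and 16th of the 14683 tested genes with a known length. The transporters followed with 14.29 CPM per kilobase for Slc30a2, 10.99 for Slc39a5, 7.57 for Slc39a14, 6.32 for Slc39a4 and 4.02 for Slc30a1, levels within the top 13.1% to 36.7% of tested genes. Mt1 was above Mt2 in 6 of 6 libraries, by at least 1.29 times per length, and Mt2 was 162 to 255 times above Slc30a2. Slc30a2 was above Slc39a5 in 6 of 6 libraries, but by 1.01 times at the least. Slc39a5 was above Slc39a14 in 6 of 6. Slc39a14 and Slc39a4 changed places, with Slc39a14 the higher in 4 of 6 libraries and ratios from 0.617 to 2.4. Slc39a4 was above Slc30a1 in all 6, by 1.03 to 2.93 times. The exon union of Mt1, 1246 bases, was as long as its whole counted gene, and that of Mt2 was 950 bases. Their canonical transcripts have 762 and 748 bases. The gap between Mt1 and Mt2 and the order of the transporters therefore depended on the length used, and ranks were taken with exon unions only. With the canonical transcript in place of all exons, Slc39a14 came first at 17.61 CPM per kilobase, then Slc30a2 at 16.07, Slc39a5 at 12.54, Slc39a4 at 9.53 and Slc30a1 at 4.31, with Mt1 at 6021 and Mt2 at 3558.

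**Figure D1:**
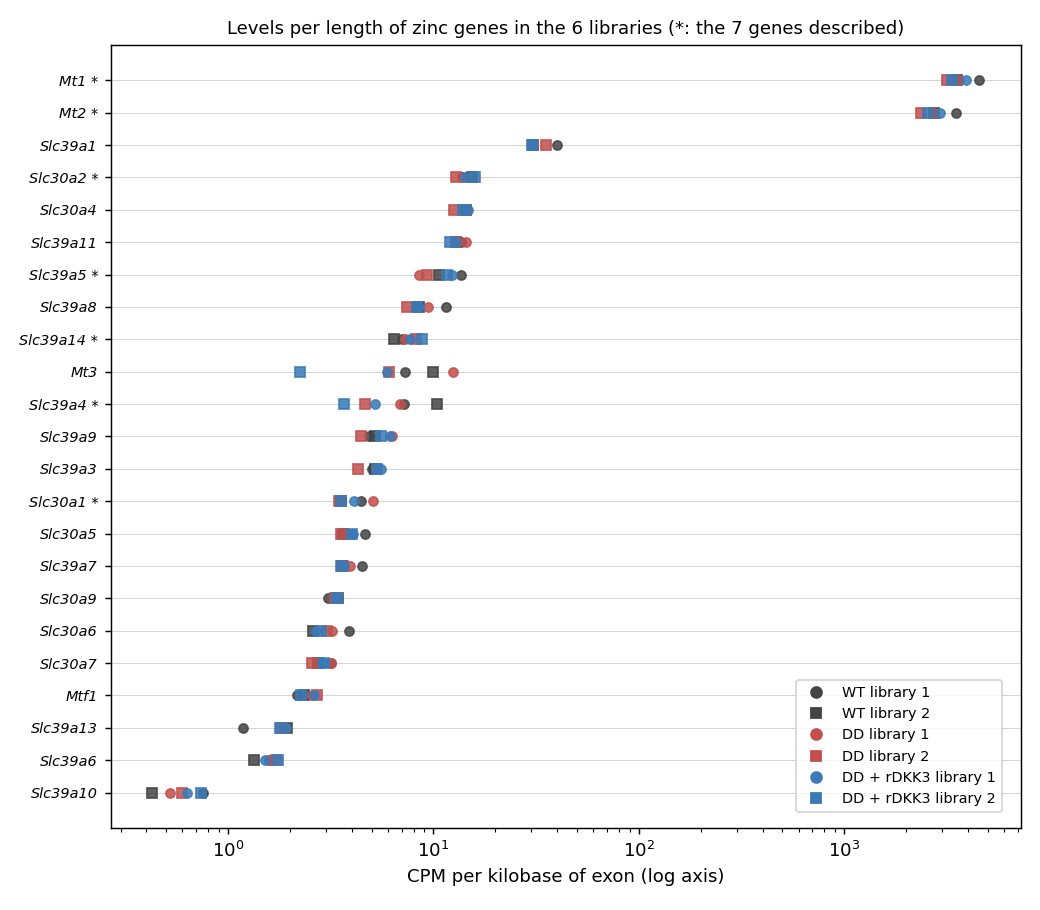
Level per kilobase of exon (CPM per kilobase, log axis) of the 7 genes (starred) and the 16 other zinc genes that passed the filter, in each of the 6 libraries (colour: group, shape: replicate number). Mt1 and Mt2 stand far to the right at means of 3682 and 2801, Slc39a1 is next at 32.76, and Slc39a4 and Mt3 are the genes whose libraries lie farthest apart.

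Lengths are the union of exons in GENCODE M39, a later release than the M32 basic set with which the counts were made. Reads were counted per exon in union mode, which drops a read that fits several exon records, so genes with overlapping exon records could be counted low and the order between genes is less secure than the comparison of 1 gene between libraries.

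The 2 metallothionein genes lie head to tail on chromosome 8 of GRCm39, Mt2 (ENSMUSG00000031762.8) at 94899292 to 94900196 and Mt1 (ENSMUSG00000031765.9) at 94905710 to 94906955, both on the plus strand and 5514 bases apart. Mt1 was at 5648 and 4396 CPM in the WT pair, 4512 and 3917 in the DD pair and 4890 and 4163 in the rDKK3-treated pair. WT 1 was the highest library and DD 2 the lowest, and the groups overlapped. Mt2 was at 3322 and 2596 CPM in the WT pair, 2596 and 2242 in the DD pair and 2775 and 2436 in the rDKK3-treated pair, in the same order from end to end. The first library of each group was above the second for both genes.

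DD against WT gave a log2 fold change of -0.25 for Mt1 (SE 0.216, 95% interval -0.76 to 0.25, edgeR quasi-likelihood adjusted p 0.668) and -0.29 for Mt2 (SE 0.21, interval -0.78 to 0.20, adjusted p 0.626). After rDKK3, against DD, the estimate was 0.10 for Mt1 (interval -0.40 to 0.60) and 0.11 for Mt2 (interval -0.38 to 0.59), with an adjusted p of 1 for each in edgeR. A difference of up to 1.44-fold for Mt1 and 1.48-fold for Mt2 separated the highest and lowest of all 6 libraries, and 32.1% and 36.9% of tested genes had a narrower range. Without WT 1 the DD against WT values were -0.046 for Mt1 and -0.087 for Mt2, and with library totals alone -0.032 and -0.07. Neither gene differed between groups by more than its libraries differed within WT, where the replicates lay 0.36 apart on the log2 scale for each.

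Against WT, the DD + rDKK3 estimate with TMM was -0.15 for Mt1 and -0.18 for Mt2, and with library totals alone both were near 0, at 0.027 and -0.0066. Totals alone also moved the median of all 14738 tested genes to 0.219 in DD against WT and 0.18 in DD + rDKK3 against WT, beside 0.0164 and 0.0171 with TMM. As shares of all counts, which need no scaling factor, the 2 genes together took 0.7598% and 0.6914% in the WT pair, 0.7605% and 0.6453% in the DD pair and 0.7763% and 0.6897% in the rDKK3-treated pair. The first library of each group was again above the second, and the groups overlapped.

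The ratio of Mt1 to Mt2 counts within a library was the steadiest quantity among the 7 genes. It was 1.70 and 1.69 in the WT pair, 1.74 and 1.75 in the DD pair and 1.76 and 1.71 in the rDKK3-treated pair. Mt1 made up 62.87% to 63.8% of the reads of both, with 95% Wilson intervals as in WT 1 (62.65% to 63.28%) that cover counting error only. Both WT values lay below the 4 Dkk3-null values, by less than the spread among the latter. Over the 6 libraries the centred log2 profiles of Mt1 and Mt2 differed by a root mean square of 0.0213, and Mt1 ranked second for likeness to Mt2 among the 8838 genes compared. The profile nearest to both was Gm45774, at 0.0179 from Mt1 and 0.00531 from Mt2. Ppp3cb, a catalytic subunit of calcineurin, was next for Mt1 at 0.0206. These distances describe the same 6 libraries for every gene, with whatever the libraries share, and are not a test.

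Gm45774 (ENSMUSG00000110588.2, chromosome 8, 94897376 to 94900040) is annotated on the strand opposite to Mt2 and shares 783 of Mt2's 950 exon bases in GENCODE M39. Its count was 93.61% and 93.91% of Mt2's in the WT pair, 93.95% and 94.38% in the DD pair and 94.62% and 94.37% in the rDKK3-treated pair. The authors describe a strand-specific count, and if the strands were separated here these would be reads from both strands in a nearly fixed proportion. Whether the strands were separated at this interval could not be tested from the counts, and Mt2's level should be read with that in mind. Slc30a1 has such a neighbour too, 1700034H15Rik, which shares 468 of its 5663 exon bases and stood at 12.55% to 14.25% of its count. Extl1, opposite Slc30a2, shares 1551 of its 3863 exon bases in GENCODE M39. Its count was 14.03% of that of Slc30a2 in DD 2 and 26.35% in DD + rDKK3 1, the lowest and highest shares. In the deposited annotation Extl1 begins at 134083683, past the end of Slc30a2 at 134081795. The genes opposite Slc39a4 in GENCODE M39, Gm62519 and Gm62526, were not analysed here.

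**Figure D2:**
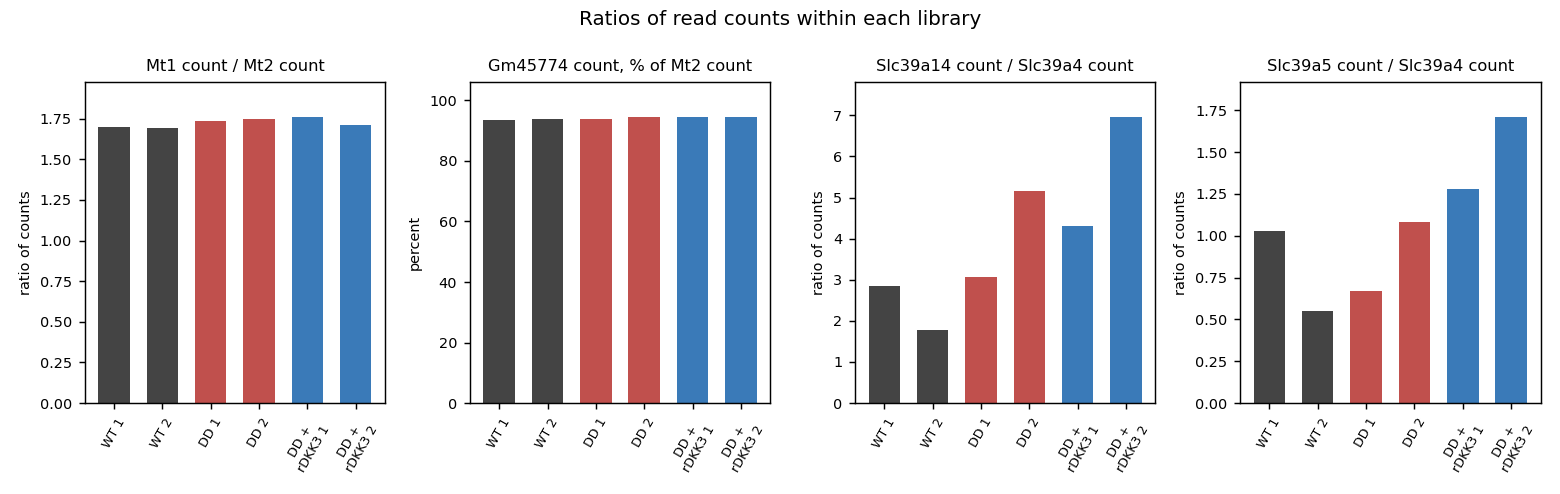
Ratios of read counts within each of the 6 libraries, which need no scaling between libraries: Mt1 to Mt2, Gm45774 as a percent of Mt2, Slc39a14 to Slc39a4 and Slc39a5 to Slc39a4 (bars start at 0, coloured by group). The first 2 panels are nearly level, at 1.69 to 1.76 and 93.61% to 94.62%, whereas Slc39a14 to Slc39a4 runs from 1.79 in WT 2 to 6.97 in DD + rDKK3 2.

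The exporters overlapped between WT and both Dkk3-null groups. Slc30a2 (ENSMUSG00000028836.15, chromosome 4, 134070492 to 134081795, plus strand), the vesicular exporter, was at 52.95 and 59.7 CPM in the WT pair, 53.0 and 49.44 in the DD pair and 54.93 and 61.21 in the rDKK3-treated pair. Its highest and lowest libraries differed by 1.24-fold, a range narrower than that of all but 8.33% of tested genes. Both DD + rDKK3 libraries were above both DD libraries, by 0.18 on the log2 scale (SE 0.147, interval -0.16 to 0.52, edgeR adjusted p 1). Its WT replicates were 0.17 apart on that scale. DD against WT was -0.14 (interval -0.48 to 0.21), or 0.062 with library totals alone.

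Slc30a1 (ENSMUSG00000037434.8, chromosome 1, 191638879 to 191645359, plus strand), the plasma-membrane exporter and an MTF1 target like the metallothioneins, was at 25.05 and 20.02 CPM in the WT pair, 28.63 and 19.58 in the DD pair and 23.34 and 20.06 in the rDKK3-treated pair. The DD pair held both its highest and its lowest value. DD against WT gave a log2 fold change of 0.10 (SE 0.225, interval -0.42 to 0.62), DD + rDKK3 against DD one of -0.15 (SE 0.223, interval -0.67 to 0.36) and DD + rDKK3 against WT one of -0.051 (interval -0.58 to 0.47), and leaving out a library changed the sign of each. These intervals bound the estimates and are not limits of detection, and with 2 libraries a group they leave room for a difference in either direction. Its nearest profiles were those of Vegfb, a vascular growth factor (0.0441), and Atp9a, a phospholipid flippase (0.0556).

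Each of the importers had a pattern of its own. Slc39a4 (ENSMUSG00000063354.8, chromosome 15, 76496583 to 76501584, minus strand) was at 29.86 and 43.2 CPM in the WT pair, 28.63 and 19.28 in the DD pair and 21.6 and 15.27 in the rDKK3-treated pair, from 284 to 615 counts. Both WT libraries were above all 4 Dkk3-null libraries, although WT 1 and DD 1 were separated by little more than 1 CPM and their 95% counting intervals, 26.6 to 33.42 and 26.4 to 31.01 CPM, overlapped. It varied most of the 7 genes, by 2.81-fold from end to end, a wider range than that of 88.1% of tested genes.

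Slc39a4 fell short of the threshold in every comparison. In DD against WT its log2 fold change was -0.61 (SE 0.274, interval -1.25 to 0.027, edgeR adjusted p 0.586). In DD + rDKK3 against WT it was -0.99, or 0.504 times the WT level (SE 0.277, interval -1.63 to -0.35), with an adjusted p of 0.321 in the edgeR fit and rank 231 of 14738 by p. DD + rDKK3 against DD gave -0.38 (SE 0.275, interval -1.02 to 0.26, edgeR adjusted p 1), with overlapping groups. Single libraries carried much of these sizes. DD against WT was -0.31 without WT 2 and -0.35 without DD 2, but -0.90 without DD 1. In DD + rDKK3 against WT the value was -0.69 without WT 2, the library labelled female, and -0.76 without DD + rDKK3 2. It was -1.21 without WT 1 and -1.26 without DD + rDKK3 1. DD + rDKK3 against DD was -0.086 without DD 1, -0.16 without DD + rDKK3 2, -0.63 without DD 2 and -0.66 without DD + rDKK3 1. Without the filter on low counts the same difference of DD + rDKK3 from WT had an adjusted p of 0.000657 in edgeR at a log2 fold change of -0.95, and that fit called 788 genes in place of 7. The second library was below the first in both Dkk3-null groups and above it in WT.

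The libraries lowest for Slc39a4, DD 2 and DD + rDKK3 2, were those with the high fibroblast and stellate marker sums (the plot of fibroblast markers). Without both, DD against WT gave a log2 fold change of -0.36 and DD + rDKK3 against WT one of -0.76, with edgeR adjusted p of 0.761 and 0.911. The part of these markers in the difference was otherwise not tested. The genes nearest to Slc39a4 in profile were Tesc (tescalcin, a calcium-binding protein, 0.142) and Pamr1 (0.148), larger distances than the nearest found for any of the other 6 genes.

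**Figure D3:**
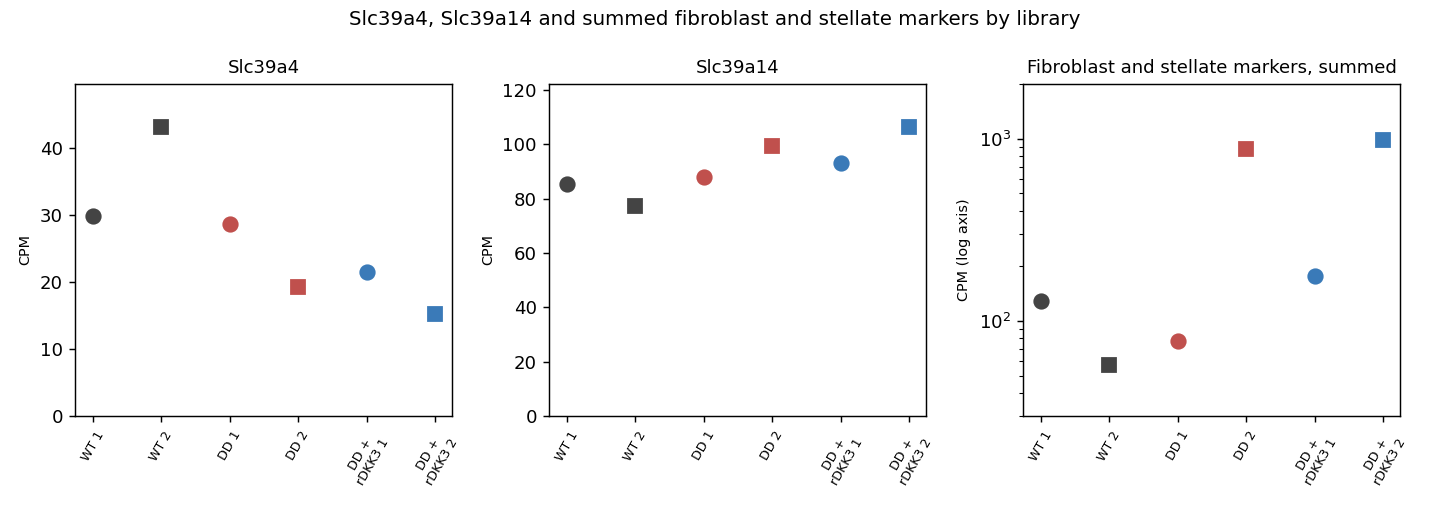
CPM of Slc39a4 (left) and Slc39a14 (centre), each from 0, and the summed CPM of 14 fibroblast and stellate markers (right, log axis) in the 6 libraries (colour: group, shape: replicate number). DD 2 and DD + rDKK3 2 stand at 875.4 and 976.8 on the right, are the lowest for Slc39a4 at 19.28 and 15.27 and the highest for Slc39a14 at 99.29 and 106.4.

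Slc39a5 (ENSMUSG00000039878.14, chromosome 10, 128231800 to 128237098, minus strand), the basolateral importer, was at 30.65 and 23.88 CPM in the WT pair, 19.17 and 20.87 in the DD pair and 27.62 and 26.14 in the rDKK3-treated pair. The DD pair lay below the 4 other libraries, and WT and DD + rDKK3 overlapped. DD against WT gave a log2 fold change of -0.44 (SE 0.173, interval -0.85 to -0.04, edgeR adjusted p 0.586), and DD + rDKK3 against DD one of 0.43 (SE 0.172, interval 0.027 to 0.82, edgeR adjusted p 1). DD + rDKK3 against WT was -0.018 (SE 0.172, interval -0.42 to 0.38), and 0.16 with library totals alone. The first 2 comparisons share the DD libraries, so a low DD value enters both with opposite sign. Leaving out WT 1 brought the first to -0.24, and leaving out WT 2 to -0.61.

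The 20 acinar markers summed to 192900 and 147700 CPM in the WT pair, 124600 and 112000 in the DD pair and 147100 and 121800 in the rDKK3-treated pair, where the last 2 pairs overlapped. None of the 20 was called in any comparison. In DD against WT 17 had a negative log2 fold change (median -0.59, beside 0.02 over all tested genes). The 3 positive ones were the transcription factor genes Bhlha15 (0.55), Ptf1a (0.41) and Rbpjl (0.11), and the transcription factor gene Nr5a2 was at -0.06. In DD + rDKK3 against DD all 20 had a positive one (median 0.25, beside -0.0028). These comparisons share the DD libraries, so low DD values enter both with opposite sign. In DD + rDKK3 against WT, where Slc39a5 was at -0.018, 14 of the 20 were negative (median -0.29). Whether the Slc39a5 values move with the acinar share of the RNA was not tested. Its nearest profiles were Zfp395 (0.0634) and the Wnt receptor gene Fzd3 (0.0754).

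Slc39a14 (ENSMUSG00000022094.16, chromosome 14, 70540918 to 70588874, minus strand), the acute-phase importer, was at 85.27 and 77.33 CPM in the WT pair, 87.93 and 99.29 in the DD pair and 93.01 and 106.4 in the rDKK3-treated pair. Every Dkk3-null library was above both WT libraries, by 0.20 on the log2 scale for DD (SE 0.159, interval -0.17 to 0.57, edgeR adjusted p 0.642) and 0.30 for DD + rDKK3 (SE 0.159, interval -0.075 to 0.67, edgeR adjusted p 0.375). The counting intervals of WT 1 (79.69 to 91.14 CPM) and DD 1 (83.98 to 92.02 CPM) overlapped. With library totals alone, which move the median of all genes as given above, the values were 0.41 and 0.47 (edgeR adjusted p 0.462 and 0.364). DD + rDKK3 against DD was 0.091 (interval -0.28 to 0.46). Without DD 2 and DD + rDKK3 2, which were also its highest libraries, the differences from WT were 0.11 and 0.20. Rbfox2, a splicing regulator, and Jak2, the kinase of cytokine receptors, had the nearest profiles, at 0.04 and 0.0431.

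Within a library, Slc39a14 outnumbered Slc39a4 by 2.86 and 1.79 times in the WT pair, 3.07 and 5.15 times in the DD pair and 4.31 and 6.97 times in the rDKK3-treated pair. The WT values were the lowest of the 6 and the DD and DD + rDKK3 values overlapped. This ratio is free of scaling, but it combines 2 genes that had already been seen to differ in direction and is given as a description. The 3 importers together, per length, stood at 1.54 and 1.44 times the 2 exporters in the WT pair, 1.21 and 1.36 in the DD pair and 1.37 and 1.24 in the rDKK3-treated pair, with both WT libraries highest. With canonical lengths the ratios were 2.12 and 2.02 in the WT pair and 1.78 to 2.03 in the others, so the groups overlapped. Other tested transporters are left out, such as the importer Slc39a1 (mean 32.76 CPM per kilobase of exon) and the exporter Slc30a4 (14.04). The ratio is therefore not a balance of all zinc import and export.

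**Figure D4:**
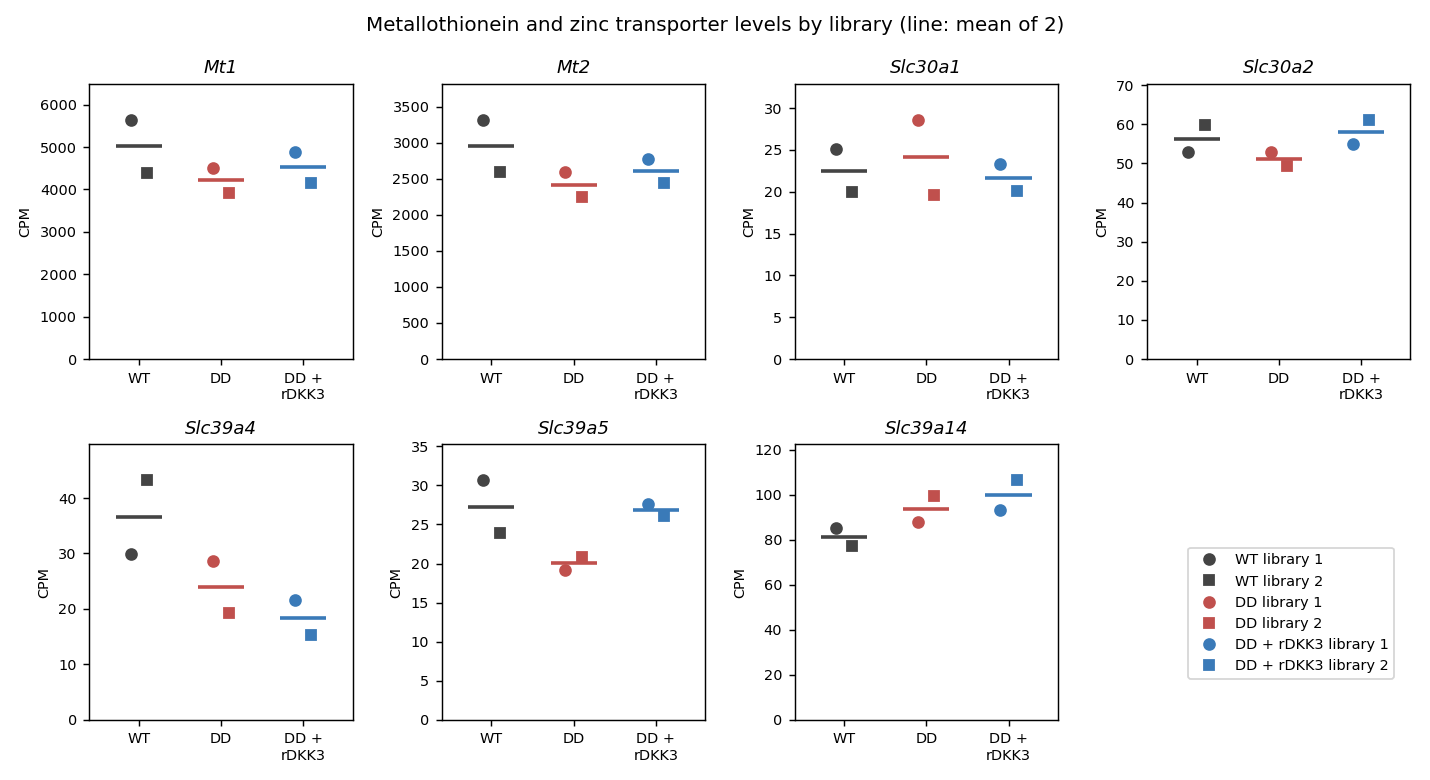
CPM of the 7 genes in each library, by group (points: libraries, horizontal line: mean of 2, axes from 0). WT lies above the Dkk3-null libraries for Slc39a4 (29.86 and 43.2 against at most 28.63) and below them for Slc39a14, DD is lowest for Slc39a5, and the groups of Mt1, Mt2 and Slc30a1 overlap in every pairing.

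Across the 3 comparisons the edgeR test called 0 of the 7 genes each time, beside 0.0407% of all 14738 tested genes in DD against WT (6 genes), 0% in DD + rDKK3 against DD (0 genes, with 292 at an unadjusted p under 0.05 and 2 called by DESeq2) and 0.0475% in DD + rDKK3 against WT (7 genes). DESeq2 also called 0 of the 7 in the first 2 comparisons. In DD + rDKK3 against WT it called none of 4 and gave no adjusted p for Slc30a1, Slc39a4 and Slc39a5. In each comparison 1 of the 7 had an unadjusted p under 0.05, Slc39a5 in the first 2 (p 0.035 and 0.0395 in edgeR) and Slc39a4 in the last (p 0.00781 in edgeR), beside 8.26%, 1.98% and 15.3% of all tested genes. The groups did not overlap for 3 of 7 genes in DD against WT (1 higher, 2 lower), 2 of 7 in DD + rDKK3 against DD (both higher) and 2 of 7 in DD + rDKK3 against WT (1 higher, 1 lower). Over all tested genes the groups did not overlap in 37.8% of cases in the first comparison (18.1% higher, 19.7% lower), 29.5% in the next (15.1% higher, 14.4% lower) and 55% in the last (27.9% higher, 27.1% lower), so the counts among the 7 were near or below the background. The median log2 fold change of the 7 was -0.25, 0.10 and -0.05, beside medians of 0.02, -0.0028 and 0.02 over all tested genes.

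**Figure D5:**
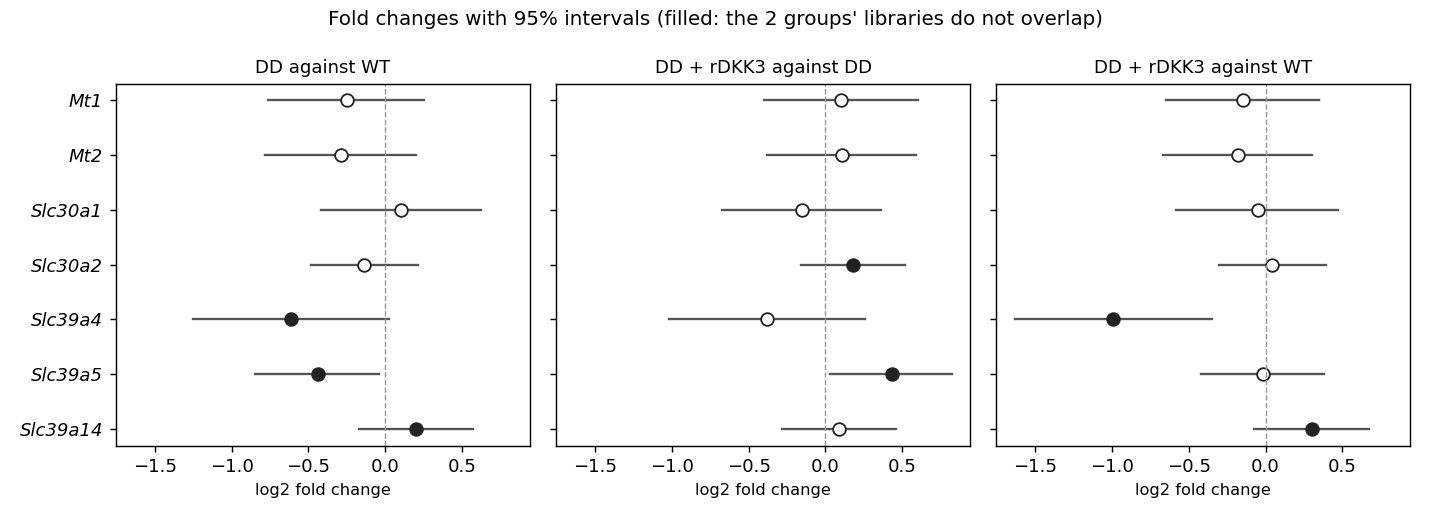
Log2 fold changes of the 7 genes in the 3 comparisons with 95% intervals from the edgeR fit (filled points: the libraries of the 2 groups do not overlap, dashed line: no change). Intervals exclude 0 for Slc39a5 in the first 2 panels and for Slc39a4 in the third, and no gene passes the adjusted threshold.

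The wider zinc list held 22 further genes, of which 16 passed the filter and 0 were called in any comparison. Mt4, Slc30a3, Slc30a8, Slc39a2 and Slc39a12 did not pass the filter and had 0 to 10 counts a library, and Slc30a10, a manganese exporter, had 0 counts in all 6, which allows up to 0.142 to 0.295 CPM. In DD + rDKK3 against DD the log2 fold changes of the 16 ran from -1.18 to 0.29, and those of the 7 from -0.38 to 0.43. In DD + rDKK3 against WT the 16 ran from -1.08 to 0.23 and the 7 from -0.99 to 0.30. Mt3 was the lowest of the 16 in both. In DD against WT alone the 16, from -0.24 to 0.23 with a median of -0.04, had a narrower span than the 7 genes. Both sets were chosen with earlier results of these data known, so the spans are given as a description only. The plasma-membrane importer Slc39a1 was the most abundant of them at a mean of 141.1 CPM with a log2 fold change of -0.09 (SE 0.184). Slc39a11 followed at 94.37 CPM (0.05, SE 0.15) and the vesicular exporter Slc30a4 at 82.73 CPM (-0.08, SE 0.149). Slc39a8, the closest paralogue of Slc39a14, averaged 70.49 CPM with a log2 fold change of -0.24 (SE 0.197, interval -0.70 to 0.22). Slc39a9, Slc30a9, Slc30a5 and Slc30a7 averaged 55.37, 52.06, 44.89 and 43.6 CPM.

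Mtf1, the gene of the metal sensor, was at 19.65 and 21.42 CPM in the WT pair, 23.24 and 24.57 in the DD pair and 23.82 and 20.65 in the rDKK3-treated pair. Of the 16 tested genes of the list, 2 had groups that did not overlap in DD against WT, beside 37.8% of all tested genes, so the list lay below the background. Mtf1 was 1 of them, with a log2 fold change of 0.22 (SE 0.159, edgeR adjusted p 0.628), and the other was the importer Slc39a6 at 0.20 (SE 0.176, edgeR adjusted p 0.673). Mt3, the metallothionein best known from brain, was picked out after its values were seen. It was at 10.12 and 13.91 CPM in the WT pair, 17.27 and 8.47 in the DD pair and 8.24 and 3.12 in the rDKK3-treated pair, where both libraries were below all the others. Against DD this was a log2 fold change of -1.18 (SE 0.484, interval -2.31 to -0.06, edgeR adjusted p 1).

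The pathways known to induce metallothioneins were read from lists of their target genes. Of 12 glucocorticoid-responsive genes, all tested, 0 were called, and their sum was 1541 and 1645 CPM in the WT pair, 1742 and 1799 in the DD pair and 1899 and 2130 in the rDKK3-treated pair, without overlap between groups. The median log2 fold change of the list was 0.01 in DD against WT and 0.37 in DD + rDKK3 against WT. The median over all tested genes was 0.02 in each of these comparisons. In DD against WT 7 of the 12 had a positive and 5 a negative log2 fold change. Fkbp5 (0.60, SE 0.187), Dusp1 (0.78, SE 0.235) and Zfp36 (1.11, SE 0.485) had the smallest p in DD against WT, each with an edgeR adjusted p of 0.586. The paper names Dusp1 among the top upregulated genes of a MAPK set in the same comparison. A value of Dusp1 is therefore not particular to glucocorticoids. Sgk1 (-0.23, SE 0.223) was the lowest of the list. Mt1 and Mt2 had negative estimates in that comparison. Of 12 IL6-STAT3 and acute-phase genes, 0 were called in any comparison. In DD against WT their median was 0.10, and the 3 with the smallest p were Lcn2 (-0.55, SE 0.195), Il6ra (0.51, SE 0.263) and Reg3b (-0.76, SE 0.405). In DD + rDKK3 against DD the median was 0.18, with 9 positive and 3 negative values. Against WT the treated group gave a median of 0.08, with 8 positive and 4 negative values.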

How the data were processed

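Total RNA of 6 acinar cultures, 2 each of WT, DD and DD + rDKK3, was sequenced as 50-base read pairs from strand-specific libraries. The authors aligned the reads with STAR 2.7.9a to GRCm39 with the basic GENCODE M32 annotation, counted those over exons in union mode by strand, ignoring secondary alignments, and summed exon counts per gene. The deposited table holds these raw counts, with replicates not pooled. The authors tested them with DESeq2 1.38.0. Titles give each treated library the name of an untreated DD library, but no label names a shared animal or says that replicates came from separate ones. The main fit took the libraries as independent, and p-values measure the spread between them.

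Of 57045 rows, 92 spike-in rows with 0 counts were left out. Counts were scaled by TMM and tested with edgeR 4.0.16 (R 4.3.3) by a two-sided quasi-likelihood F test over all 6 libraries with a term for group, after filterByExpr (minimum count 10, minimum total 15) left 14738 genes. Benjamini-Hochberg adjustment ran over all of these, and genes were called at an adjusted p under 0.05. Standard errors came from the log2 fold change and F, and 95% intervals from a t distribution with 7.634 degrees of freedom. The fit was tested on simulated counts. Alternatives were other scaling, no filter, DESeq2 1.42.0, limma-voom (limma 3.58.1), fewer libraries and replicate terms. Counting intervals are 95% Poisson, and the limit for a count of 0 is 3 counts. Replicate pairs differed by far more than counting noise (chi-square per degree of freedom 21.49 to 61.06).

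The 7 genes and all lists were chosen with earlier results of these data known. Named beside them were the 8 most abundant other zinc genes, Mtf1, any zinc gene called or without overlap in DD against WT, the 2 genes with the nearest profile (root mean square difference of centred log2 CPM, mean log2 CPM of at least 3), and the 3 genes with the smallest p in DD against WT of the glucocorticoid and IL6-STAT3 lists. Exon lengths and overlaps came from GENCODE M39. Of the 50-base stretches of the reference transcripts, 0.429% of Mt2's and 0.389% of Slc39a14's were shared with other genes and 0 of the other 5 genes'. RefSeq promoters matched 5 of the 7 genes.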

Additional observations from a re-analysis of the deposited data

How the results depend on the processing

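No alternative called any of the 7 genes in DD against WT or in DD + rDKK3 against DD. In DD + rDKK3 against WT, 1 was called, Slc39a4, without the filter on low counts and with a crossed replicate block. The number of all genes called moved far more than the values did. Without the filter it was 528 in DD against WT, 73 in DD + rDKK3 against DD and 788 in DD + rDKK3 against WT, where the main fit gave 6, 0 and 7. DESeq2 gave 80, 2 and 61, and limma-voom 3 in the last comparison. A replicate block over all 6 libraries gave 7, 0 and 5 genes and 0 of the 7 described. A replicate block within the Dkk3-null libraries alone gave 20 and 15 in the 2 comparisons with WT. Deviations from the group means, taken by replicate number, correlated at -0.387 between WT and DD, -0.247 between WT and DD + rDKK3 and 0.65 between DD and DD + rDKK3. The same-numbered libraries thus gave no pairing with WT. The sign depends on how replicates were numbered, so the values cannot show whether the groups share structure in another order. The value of 0.65 and the shared names of the Dkk3-null libraries leave a pairing of DD with DD + rDKK3 possible. With 2 pairs it could not be established, and the replicate block within the Dkk3-null libraries, which called 0 of the 7 genes, is the fit that assumes it. A block that crosses the WT numbers, chosen after seeing the data, gave 296, 29 and 566. Leaving out 1 library gave 2 to 6, 0 to 0 and 2 to 9 genes, and leaving out both DD 2 and DD + rDKK3 2 gave 14 in DD against WT. The cause of these differences was not tested.

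Some values near 0 changed sign. With library totals alone Slc30a2 was 0.062 in DD against WT, and in DD + rDKK3 against WT Slc30a1 was 0.12, Mt1 0.027 and Slc39a5 0.16. Without the filter Slc39a5 was 0.03 there, and with the replicate block within the Dkk3-null libraries Slc30a1 was 0.14. Without both second Dkk3-null libraries, in the same comparison, Slc30a1 was 0.059, Slc30a2 -0.031 and Slc39a5 0.027. Leaving out 1 library at a time, Slc30a1 ran from -0.18 to 0.35 in DD against WT. In DD + rDKK3 against DD Slc30a1 ran from -0.40 to 0.13, Mt1 from -0.031 to 0.21, Mt2 from -0.0037 to 0.19 and Slc39a14 from -0.017 to 0.18. In DD + rDKK3 against WT Slc30a1 ran from -0.20 to 0.14, Slc30a2 from -0.031 to 0.14, Mt1 from -0.31 to 0.062, Mt2 from -0.34 to 0.025 and Slc39a5 from -0.18 to 0.19. Slc39a4 kept its direction in all 3 comparisons under every alternative run, and Slc39a5 in the comparisons with DD. The cause was not tested.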
